A study of Mus musculus with 6 samples.

Results

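The 10 genes described here encode enzymes of glycolysis, taken in pathway order: Hk1, Hk2, Gpi1, Pfkl, Pfkp, Aldoa, Pgk1, Eno1, Pkm and Ldha. They were chosen by name from the textbook pathway with earlier results of these data known. All 10 were found among the 53379 gene IDs and passed the filter on low counts. They were read in sorted stem cells of the small intestine of C57BL/6 mice, in 3 control libraries and 3 libraries labelled Klf5-KO. Both groups carried the Lgr5-EGFP-IRES-CreERT2 allele, which drives a green reporter and a tamoxifen-inducible Cre recombinase from the Lgr5 locus, and the Rosa-tdTomato reporter. The Klf5-KO mice also carried Klf5fl/fl, and both groups received 1 mg of tamoxifen per injection on 5 days. The cells came from the proximal small intestine and were gated on bright EGFP. Cre is made only where Lgr5 is transcribed, and the labels give no age, no sex and no statement that each replicate was a separate mouse. The p-values therefore measure the spread between these libraries, which may be in part technical.

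Glycolysis splits glucose into pyruvate in the cytosol with a net gain of ATP. Its first steps trap and rearrange the sugar and spend ATP, and its later steps recover it, after which lactate dehydrogenase can reduce pyruvate to lactate and return NAD+. Most steps have several isozymes that differ in tissue and in regulation, so a step's transcripts can change in makeup as well as in amount. In the crypt, Lgr5 stem cells sit between Paneth cells, secretory neighbours known to be strongly glycolytic, while absorptive enterocytes of the villus carry their own set of sugar-handling isozymes.

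Klf5, the zinc finger factor that was to be deleted, went against the labels. Its mean was 513 ± 33.1 CPM (reads of the gene scaled to a common library size, SD, n = 3) in the controls and 892 ± 23.1 CPM across the libraries labelled Klf5-KO, a log2 fold change of 0.80 (SE 0.10, edgeR adjusted p = 6.3e-04). Exons were not counted apart, so transcripts that lack the floxed exons are counted with the rest. No direction below can therefore be tied to a loss of Klf5 protein. Library depth was 61563625 to 77666540 counts. All 5 stem cell markers, Lgr5 among them, were present in every library and fell in the libraries labelled Klf5-KO. Their sum went from 6631 to 9299 CPM in the controls to 2055 to 3320 CPM. Most of that sum was Olfm4, at 5556 to 7918 CPM in the controls and 1540 to 2770 CPM in the others. Lgr5 itself fell from a mean of 141 to 87.6 CPM (log2 fold change -0.68). The summed level of 5 Paneth markers was 1216 and 1437 CPM in control replicates 1 and 2, 14177 CPM in control replicate 3, and 6509 to 8294 CPM across the libraries labelled Klf5-KO. In this respect control replicate 3 was unlike the other controls. None of the 5 Paneth markers was called, and the groups overlapped for each of them. Their log2 fold changes were positive for 4 and negative for 1. The 6 enterocyte markers summed to 358 to 594 CPM in the controls and 828 to 1542 CPM across the libraries labelled Klf5-KO, with 3 called higher. Of the other lineages, 4 of 4 enteroendocrine markers fell (summed 125 to 267 CPM in the controls, 70.01 to 77.9 CPM in the others), 2 of 5 goblet markers fell (2004 to 2385 CPM, then 969 to 1236 CPM) and 2 of 4 tuft markers rose (63.7 to 83.0 CPM, then 90.8 to 170 CPM). Most of the goblet sum in the controls was Fcgbp, at 1146 to 1689 CPM there and 419 to 645 CPM in the others. The 3 other goblet markers that did not fall were not called. Leukocyte markers summed to 18.7 to 35.8 CPM, and neither they nor 5 dissociation-response genes (1937 to 2830 CPM) held a called gene. Markers of fibroblasts, endothelium and erythrocytes each summed to 2.55 CPM or less in every library. Among them the fibroblast marker Col1a2 was called higher, from a mean of 0.043 to 0.643 CPM (log2 fold change 3.86, edgeR adjusted p = 7.9e-04).

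Of the 10 enzymes, 3 rose in the libraries labelled Klf5-KO (Pfkp, Aldoa and Eno1), none fell, and 7 were not called at an adjusted p of 0.05 (edgeR quasi-likelihood test). Of those 7, Hk1 and Ldha had an unadjusted p under 0.05. Over all 19339 genes tested, 25.8% were called, 13.3% higher and 12.5% lower. The median log2 fold change was 0.15 over the 10 enzymes and -0.01 over all genes tested. The enzymes were chosen with earlier results known, so figures set beside all genes describe this list only. The groups did not overlap, with the libraries labelled Klf5-KO higher, for 4 enzymes (Pfkp, Aldoa, Eno1 and Ldha), against 22.2% of all genes, and with them lower for 1 (Hk1), against 21.0%. In bulk RNA, a change in the number of cells of a type and a change in RNA per cell cannot be told apart.

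The sequences just upstream of the 3 enzymes that rose, and of Ldha, are shown because Klf5 belongs to a family that binds CACC-type and GC-type boxes, and Ldha carries the densest set of ACGTG, the core of the hypoxia response element. Each is the 250 bases before an annotated start, from RefSeq on GRCm38.p6, read 5′ to 3′ on the gene's strand. Where a gene had several starts, the one whose window held the fewest exonic bases was used, then the nearest to the gene's start. Capitals mark CCNCNCCC on either strand in the first 3 sequences and ACGTG on either strand in the last.
Pfkp, chr13:6648772-6649021, strand minus: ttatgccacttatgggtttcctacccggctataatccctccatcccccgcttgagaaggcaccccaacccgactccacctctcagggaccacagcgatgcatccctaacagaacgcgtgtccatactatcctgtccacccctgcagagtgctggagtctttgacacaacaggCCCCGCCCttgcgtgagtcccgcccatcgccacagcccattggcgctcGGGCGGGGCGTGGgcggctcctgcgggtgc
Aldoa, chr7:126799255-126799504, strand minus: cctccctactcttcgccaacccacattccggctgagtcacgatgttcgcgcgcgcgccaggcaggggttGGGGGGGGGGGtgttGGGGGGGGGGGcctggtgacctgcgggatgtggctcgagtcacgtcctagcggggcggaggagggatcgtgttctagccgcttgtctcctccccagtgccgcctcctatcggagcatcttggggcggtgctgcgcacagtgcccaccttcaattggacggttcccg
Eno1, chr4:150236458-150236707, strand plus: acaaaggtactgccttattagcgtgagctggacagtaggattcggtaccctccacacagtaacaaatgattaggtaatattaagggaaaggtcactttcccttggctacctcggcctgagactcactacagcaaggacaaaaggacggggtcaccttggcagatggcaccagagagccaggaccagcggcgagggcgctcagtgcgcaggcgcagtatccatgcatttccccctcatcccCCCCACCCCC
Ldha, chr7:46845554-46845803, strand plus: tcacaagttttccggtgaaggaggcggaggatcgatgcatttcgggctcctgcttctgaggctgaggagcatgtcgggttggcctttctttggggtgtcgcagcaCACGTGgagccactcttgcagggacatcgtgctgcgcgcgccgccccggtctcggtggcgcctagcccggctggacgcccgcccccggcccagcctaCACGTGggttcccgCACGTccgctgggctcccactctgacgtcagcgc
CCNCNCCC matched 3 times in the Pfkp window, 8 times in the Aldoa window and 2 times in the Eno1 window. All 8 matches of Aldoa overlap within a pair of G runs, the pair of Eno1 matches overlap within the last bases before the start, and 2 of the 3 Pfkp matches overlap. This motif occurs in 45.9% of 32851 windows of the same length before RefSeq starts, with a mean of 1.21 matches per window. Among the enzymes that were not called it matched 11 times for Pkm and 0 times for Hk1. These counts depend on the start that was chosen. At the other annotated starts the motif matched 6 times for Hk1 and 2 times for Pkm. It matched 3 and 4 times at the other starts of Aldoa, and 3 and 4 times at those of Eno1. ACGTG matched 5 times before Ldha, 2 times each before Hk2 and Pgk1, 1 time each before Aldoa and Pkm, and 0 times before Pfkp, Eno1 and the other 3 enzymes. It occurs in 16.6% of all windows, with a mean of 0.254 matches per window. In the Ldha window 2 of the sites are CACGTG, a palindrome that counts as a match on each strand and occurs in 6.02% of windows. At the other annotated start of Ldha, and at that of Pkm, ACGTG matched 0 times. A match describes these letters only.

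Hexokinases catalyse the entry step, phosphorylating glucose. Hk2, the inducible form, carried nearly all of the hexokinase reads among the 10 enzymes, with 116, 118 and 124 CPM in control replicates 1, 2 and 3 and 134, 166 and 117 CPM across the libraries labelled Klf5-KO. The groups overlapped, because Klf5-KO replicate 3 lay within the control range, and the log2 fold change of 0.22 (95% interval -0.06 to 0.49, edgeR adjusted p = 0.22) was not called. It was 0.09 without Klf5-KO replicate 2 and 0.33 without Klf5-KO replicate 3. Hk1, the broadly expressed form, was the least abundant of the 10, with 4.77, 4.49 and 5.62 CPM in the controls and 4.02, 3.02 and 3.18 CPM across the libraries labelled Klf5-KO. All 3 control values lay above all 3 others. They rest on 346 to 348 reads per control library and 194 to 275 reads in the others, and a count of 194 has a 95% Poisson interval of 168 to 223 that covers counting error only. The log2 fold change of -0.54 (SE 0.18, edgeR adjusted p = 0.052) fell just short of the threshold, and it passed with upper-quartile scaling (adjusted p = 0.049), limma-voom (0.048) and DESeq2 (0.019). Without control replicate 3 and Klf5-KO replicate 2 it was -0.36.

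Gpi1, which turns glucose 6-phosphate into fructose 6-phosphate, lay at 253, 282 and 282 CPM in the controls and at 257, 278 and 268 CPM across the libraries labelled Klf5-KO. The ranges overlapped almost wholly, and the log2 fold change of -0.03 had a 95% interval of -0.22 to 0.17.

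Phosphofructokinase makes the committed step of the pathway. Pfkp, the platelet-type subunit, rose 1.33-fold. Its values were 50.4, 37.2 and 46.9 CPM in the controls and 55.2, 67.3 and 55.9 CPM across the libraries labelled Klf5-KO, so the groups did not overlap but the highest control came within a few CPM of the lowest of the others. The log2 fold change was 0.41 (SE 0.13, edgeR adjusted p = 0.044). This was the weakest of the 3 calls: it was lost without control replicate 2, at a change of 0.29 (adjusted p = 0.12), and without Klf5-KO replicate 1, 2 or 3 (adjusted p = 0.068, 0.11 and 0.074). Pfkl, the liver-type subunit and the more abundant of the pair per length, was not called. Its values were 68.7, 64.8 and 64.0 CPM against 68.1, 66.9 and 63.5 CPM, with a log2 fold change of 0.01 and a 95% interval of -0.17 to 0.18.

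Aldoa, the aldolase of muscle and most proliferating cells, had the largest rise of the 10, 1.51-fold. It lay at 154, 170 and 198 CPM in the controls and at 234, 306 and 250.1 CPM across the libraries labelled Klf5-KO. Every library labelled Klf5-KO was above every control. The log2 fold change was 0.60 (SE 0.13, edgeR adjusted p = 0.0092), and this call held in each of the settings at the threshold of 0.05, at 0.58 (adjusted p = 0.0041) without control replicate 3 and Klf5-KO replicate 2 together. The files give the symbol to a second gene ID just upstream on the same strand, at chr7:126800790-126809108, and that ID fell. It had 3.46, 2.74 and 3.23 CPM in the controls and 1.65, 1.34 and 1.46 CPM in the others (log2 fold change -1.08, SE 0.19, edgeR adjusted p = 0.0040), a small part of the reads of the main ID at chr7:126795234-126800751 (mm10).

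In the stretch of the pathway that pays back ATP, 1 of Pgk1, Eno1 and Pkm was called. Pgk1, the X-linked kinase that makes the first ATP, lay at 135, 134 and 130.4 CPM in the controls and at 115, 127 and 135 CPM across the libraries labelled Klf5-KO. The spread was wider in the latter, and the log2 fold change of -0.08 (95% interval -0.27 to 0.11) was not called. Eno1, the enolase that forms phosphoenolpyruvate, rose 1.30-fold, from 174, 182 and 194 CPM to 226, 259 and 233 CPM. Its groups did not overlap. The log2 fold change was 0.38 (SE 0.09, edgeR adjusted p = 0.014), and at the threshold of 0.05 the call was lost in 1 of the settings run, without control replicate 2, where the change stayed at 0.38 with an adjusted p of 0.051.

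Pkm, the pyruvate kinase gene whose alternative exons give the M1 and M2 forms, lay at 239, 271 and 298 CPM in the controls and at 269, 306 and 284 CPM across the libraries labelled Klf5-KO. The groups overlapped and the log2 fold change was 0.09 (95% interval -0.15 to 0.32). Gene counts do not separate its splice forms. Ldha, the lactate-forming dehydrogenase, was the most abundant of the 10. It lay at 460, 405 and 478 CPM in the controls and at 505, 591 and 508 CPM across the libraries labelled Klf5-KO, so the groups did not overlap. Its log2 fold change of 0.26 (95% interval 0.01 to 0.50) had an unadjusted p of 0.042 and an edgeR adjusted p of 0.12, and it was not called.

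**Figure D1:**
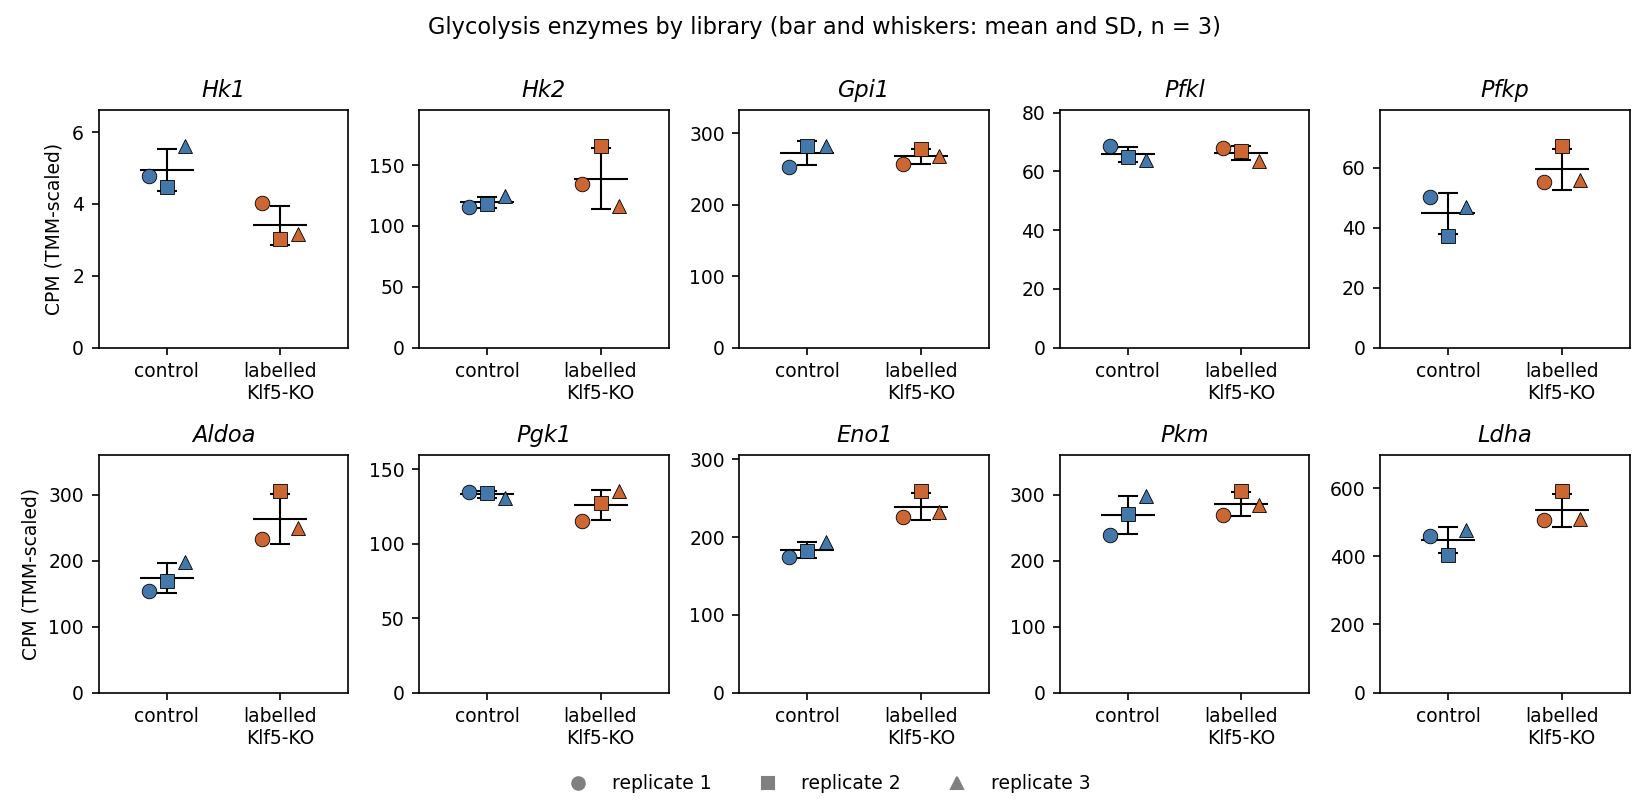
Level of each of the 10 enzymes in CPM (linear axes from 0, 1 scale per gene) in the 3 control libraries (blue) and the 3 libraries labelled Klf5-KO (orange), with the mean as a bar and the SD as whiskers. The groups separate upward for Pfkp, Aldoa, Eno1 and Ldha and downward for Hk1, and Klf5-KO replicate 2 (orange square) is the highest of all 6 libraries for 6 enzymes.

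Library differences ran across the enzymes. Klf5-KO replicate 2 was the highest of its group for 7 of the 10, and control replicate 3, the library with the high Paneth marker level, was the highest control for 7 of the 10. With both libraries left out, 2 enzymes remained called higher, Aldoa and Eno1 (log2 fold change 0.37, edgeR adjusted p = 0.018), while Pfkp had 0.35 and an adjusted p of 0.081. Without control replicate 3 alone, Pfkp, Aldoa and Eno1 all passed. The part that the levels of Paneth, enterocyte, stem cell, goblet, enteroendocrine or tuft markers have in these changes was not tested. Across the 6 libraries, Aldoa and Eno1 had the closest pair of profiles among these enzymes (Pearson r = 0.99), followed by Pfkp and Ldha (0.97), and Hk1 ran opposite to Eno1 (-0.85) and Aldoa (-0.80). These correlations describe 6 points that include the group difference and share each library's scaling.

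Per exon length, the 10 enzymes differed widely in level. In the controls, Ldha led with 135 ± 11.5 CPM per kb (SD, n = 3). Aldoa followed at 59.8 ± 7.74, Pgk1 at 59.3 ± 1.06 and Pkm at 53.8 ± 5.87 CPM per kb, and these 3 neighbours did not differ beyond their spread. Gpi1 stood at 42.2 ± 2.63, Eno1 at 34.1 ± 1.80, Hk2 at 19.997 ± 0.746, Pfkl at 9.86 ± 0.376, Pfkp at 3.35 ± 0.510 and Hk1 at 0.581 ± 0.0689 CPM per kb. In the libraries labelled Klf5-KO, Aldoa reached 90.4 ± 13.0 CPM per kb and stood apart from Pkm (57.2 ± 3.69) and Pgk1 (56.1 ± 4.48), and Eno1 (44.4 ± 3.28) lay level with Gpi1 (41.4 ± 1.65). The files' length sums all exons of a gene, so a gene whose cells use short transcripts reads low on this scale.

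**Figure D2:**
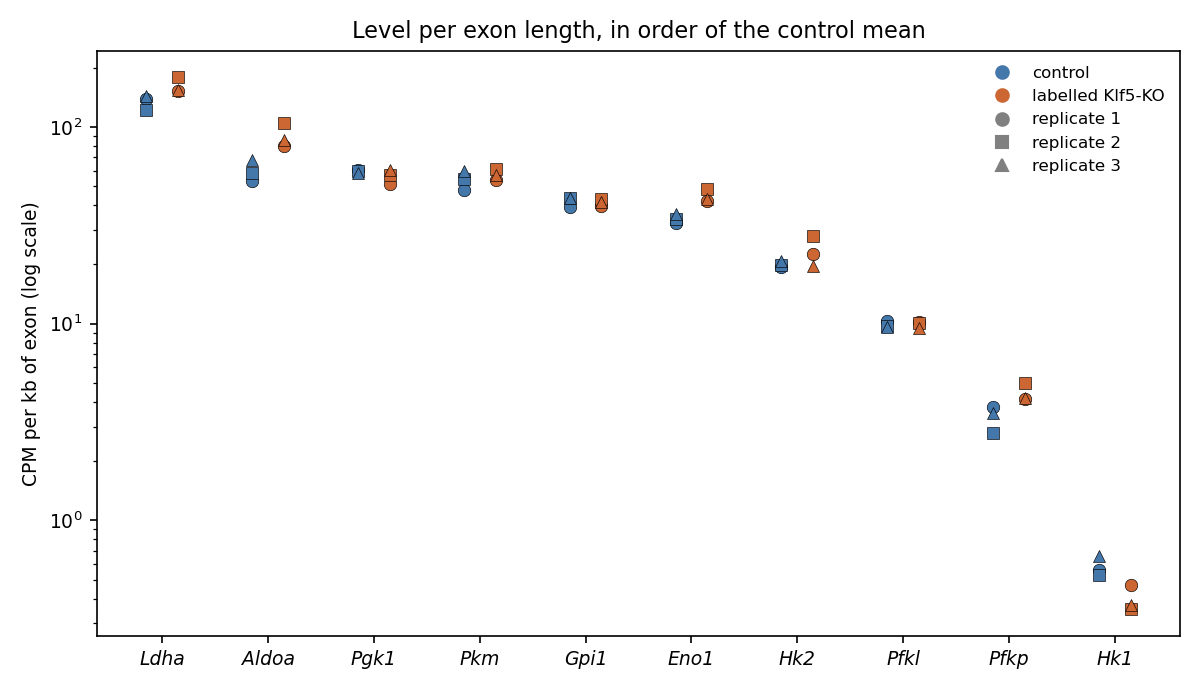
CPM per kb of summed exon length on a log axis for the 10 enzymes, ordered by the control mean, with 1 point per library. Ldha is the highest and Hk1 the lowest in every library, and Aldoa leaves the cluster of Pgk1 and Pkm in the libraries labelled Klf5-KO.

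The pathway's other isozymes and remaining steps changed in both directions. Of 19 such genes described here, 15 were tested, 5 rose and 1 fell, against 13.3% higher and 12.5% lower over all genes tested. Hkdc1, a hexokinase family member expressed in gut epithelium, rose from 34.8, 31.1 and 47.3 CPM to 119, 96.2 and 93.3 CPM, a log2 fold change of 1.45 (SE 0.16, edgeR adjusted p = 3.2e-04). Every library labelled Klf5-KO was well above every control. Pfkm, the muscle-type phosphofructokinase, fell from 17.0 ± 1.75 to 9.80 ± 0.634 CPM (SD, n = 3; log2 fold change -0.80, edgeR adjusted p = 0.0015). Pfkm thus fell where Pfkp, of the same step, rose. Aldoc, the brain-type aldolase, rose from 7.64 ± 1.96 to 22.7 ± 1.15 CPM (1.57, edgeR adjusted p = 2.6e-04).

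Gapdh, the oxidative step between aldolase and Pgk1, rose from 477, 483 and 606 CPM to 688, 864 and 720.4 CPM (log2 fold change 0.54, edgeR adjusted p = 0.018). The call was lost without control replicate 1, control replicate 2 or Klf5-KO replicate 2 (adjusted p = 0.058, 0.081 and 0.066). Pklr, the liver and red cell pyruvate kinase, rose by 0.38 on the log2 scale (edgeR adjusted p = 0.024), and Bpgm, which makes 2,3-bisphosphoglycerate, by 0.39 (0.036). Each of the last 2 calls was lost when single libraries were left out. Tpi1, the triose phosphate isomerase, had a log2 fold change of 0.22, Pgam1, a phosphoglycerate mutase, of 0.19 (edgeR adjusted p = 0.11 for both), and Ldhb of -0.14 (0.84), and none of these was called.

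**Figure D3:**
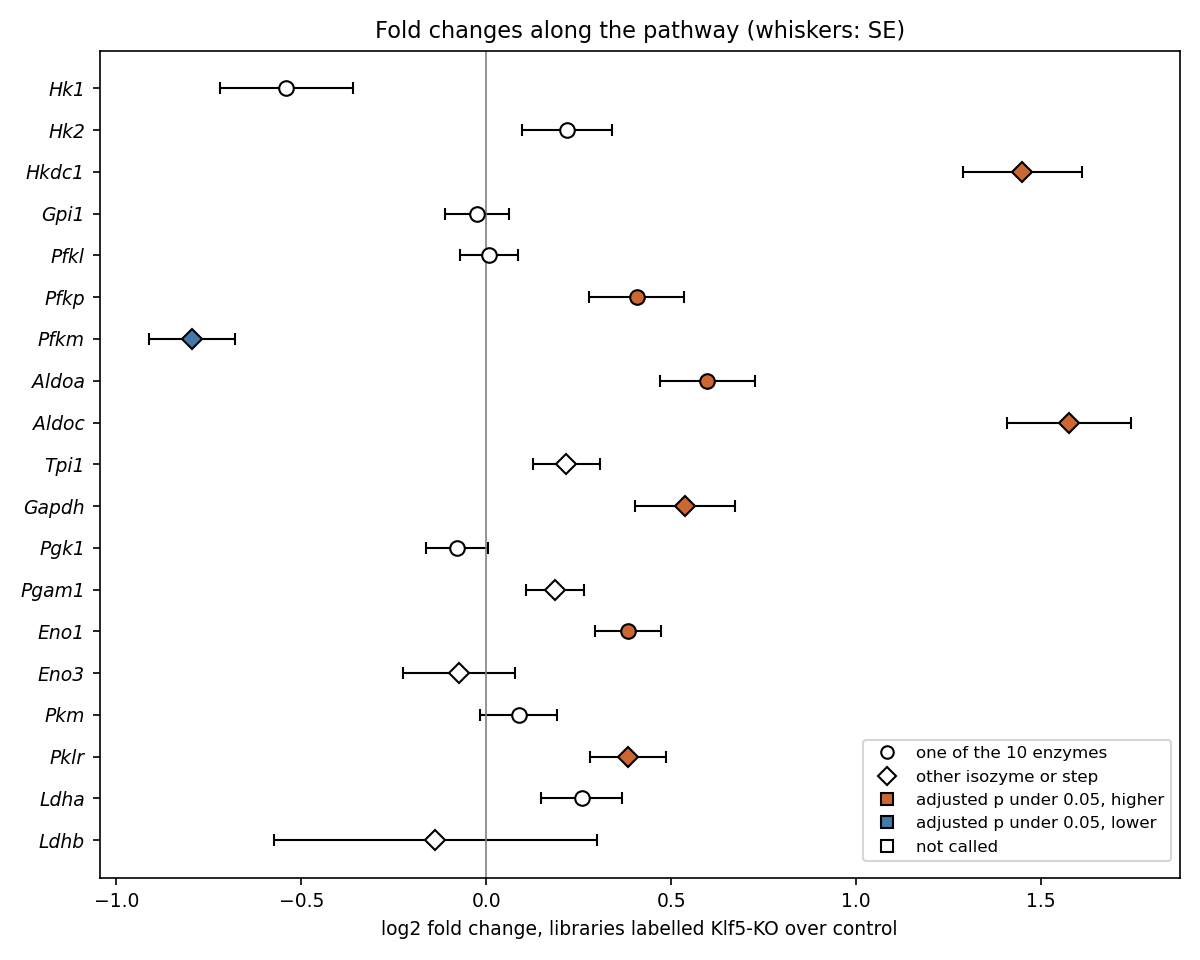
Log2 fold change of the libraries labelled Klf5-KO over control, with SE whiskers, for the 10 enzymes (circles) and for other isozymes and steps (diamonds) in pathway order; filled symbols passed an edgeR adjusted p of 0.05. Among the genes plotted, changes reach from -0.80 for Pfkm to 1.57 for Aldoc, and the 10 enzymes lie between -0.54 for Hk1 and 0.60 for Aldoa.

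The makeup of the transcripts was compared within 5 steps, and of these the largest difference in a share was at hexokinase. Hk2 made up 72.4, 74.9 and 67.6% of the summed level per length of Hk1, Hk2, Hk3 and Hkdc1 in the controls and 48.6, 59.2 and 51.2% in the libraries labelled Klf5-KO. Hkdc1 went from 26.05 ± 3.56% to 45.9 ± 5.34% (SD, n = 3), and the sum of these 4 genes from 28.0 ± 2.42 to 43.8 ± 4.91 CPM per kb. At phosphofructokinase the sum was 19.0 ± 0.399 and 17.7 ± 0.518 CPM per kb, with Pfkp at 17.6 ± 2.38% in the controls and 25.1 ± 2.35% in the others and Pfkm at 30.4 ± 3.32% and 18.8 ± 1.64%. Eno1, Pkm and Ldha each held most of their step in every library, with Ldha above 99% throughout. The log2 ratio of Hk2 to Hk1 per base differed by 0.75 between groups and that of Pfkp to Pfkl by 0.41, each at p = 0.10 by a two-sided exact permutation test, the smallest p that 3 against 3 allows (adjusted p = 0.15 over 3 ratios). The ratio of Ldhb to Ldha (-0.41, p = 0.5 by the same exact test) overlapped between groups, and its difference ran from -0.81 without control replicate 1 to -0.038 without control replicate 2 and -0.032 without Klf5-KO replicate 1.

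**Figure D4:**
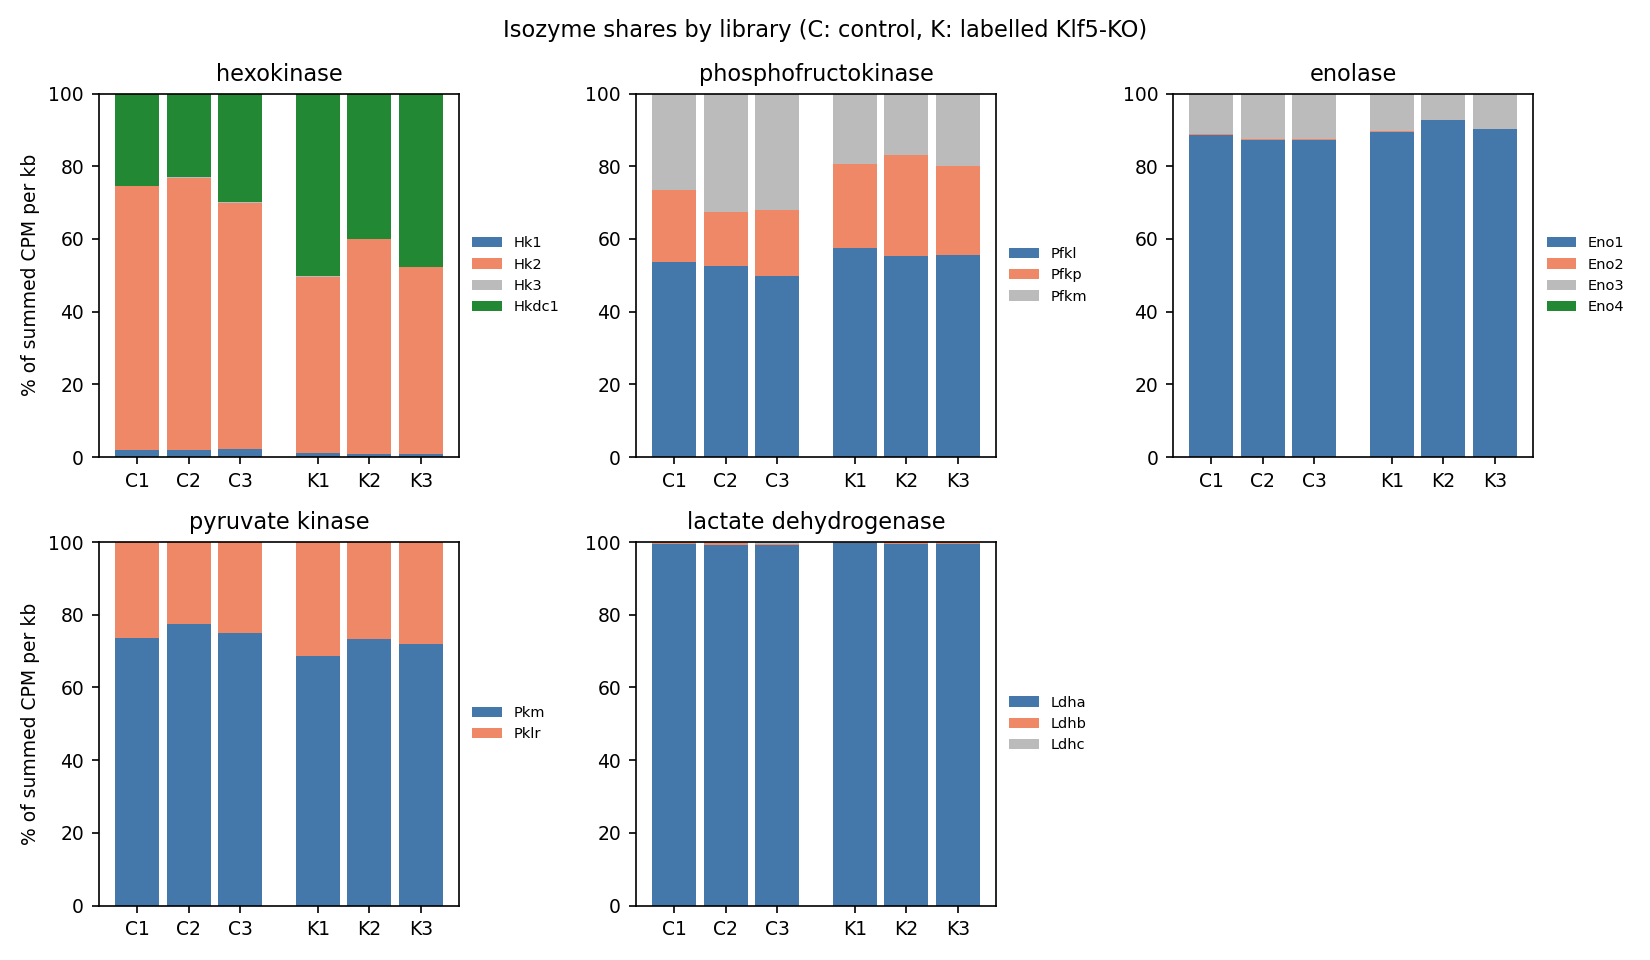
Percent of the summed CPM per kb held by each isozyme shown, for 5 steps, as stacked bars for control libraries C1 to C3 and libraries labelled Klf5-KO K1 to K3. The Hkdc1 share is larger in each K library than in any C library and the Pfkm share smaller, while Ldha fills its step in all 6.

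Genes that act on the pathway from outside moved in both directions, and each list below was assembled by textbook function with earlier results of these data known. All 15 regulators of flux were tested, and 2 rose and 4 fell, where 13.3% of all genes were higher, the same share as here, and 12.5% lower. Mlxip, the glucose-sensing factor also called MondoA, fell from 234 ± 11.8 to 136 ± 7.44 CPM (SD, n = 3; log2 fold change -0.78, edgeR adjusted p = 2.9e-04). Myc, a driver of glycolytic gene transcription, fell from 274 ± 20.2 to 166 ± 22.4 CPM (-0.72, edgeR adjusted p = 0.0022). On the same scale Prkaa2, a catalytic subunit of AMP-activated kinase, rose by 0.81, and Pfkfb3, which makes the allosteric activator of phosphofructokinase, rose by 0.65, the latter not without Klf5-KO replicate 1 (adjusted p = 0.051).

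Of 21 genes for glucose and lactate transport, 18 were tested, 5 rose and 4 fell (13.3% and 12.5% over all genes). Slc5a9, a sodium-coupled sugar transporter, rose by 1.06, and Slc16a7, a monocarboxylate transporter, by 1.90 (log2 fold changes). Slc2a13, a proton-coupled inositol transporter, changed by -1.69, and Slc2a4, the insulin-regulated glucose transporter, by -1.63. Some of these transcripts were scarce. Slc2a4 went from a mean of 1.06 CPM in the controls to 0.339 CPM, and Slc16a7 from 2.03 to 7.53 CPM. The apical glucose transporter Slc5a1 (0.64, edgeR adjusted p = 0.0088) and the basolateral Slc2a2 (0.92, edgeR adjusted p = 0.018) also rose and were picked out after their values were seen. Slc2a5, a fructose transporter in the same list, overlapped between groups and was not called (0.54, edgeR adjusted p = 0.16). The Slc2a2 call was lost without control replicate 2 or Klf5-KO replicate 1.

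All 8 genes of gluconeogenesis, the reverse route, were tested, with 3 falling and 0 rising (12.5% and 13.3% over all genes). The mitochondrial carboxykinase Pck2 changed by -0.59, and the fructose bisphosphatases Fbp2 and Fbp1 by -0.60 and -0.94, all as log2 fold changes. Pyruvate fate was read from 22 genes, of which 3 rose, a share near the 13.3% of all genes, and 6 fell (12.5% of all genes). Pdk1 and Pdk2, kinases that switch off pyruvate dehydrogenase, changed by -0.63 and -1.06. Their relative Pdk4 rose, from 7.84 to 19.97 CPM (1.35, edgeR adjusted p = 0.0054), and was picked out after its value was seen, and Pdk3 was not called. Gpd1, the cytosolic glycerol 3-phosphate dehydrogenase, rose by 0.83, and its relative Gpd1l changed by -0.67. In the pentose phosphate pathway, the branch that leaves at glucose 6-phosphate, 9 of 11 genes were tested and 1 was called, where 25.8% of all genes were. It was H6pd, which acts in the endoplasmic reticulum and rose by 0.79 (edgeR adjusted p = 7.9e-04).

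Several glycolysis genes are textbook targets of hypoxia-inducible factor, so its targets outside glycolysis were read beside them. Of 20, 4 rose and 1 fell, with a median log2 fold change of 0.17. That is 5 called of 20, near the 25.8% of all genes. By direction, 13.3% of all genes were higher and 12.5% lower, so the 2 directions were less even in this list. Bnip3, a mitophagy receptor, rose from 1.06 ± 0.194 to 3.90 ± 0.149 CPM (SD, n = 3), Ndrg1 from 58.9 ± 21.0 to 154 ± 40.4 CPM, Higd1a from 17.2 ± 0.220 to 24.1 ± 0.858 CPM and P4ha2, a collagen prolyl hydroxylase, from 0.423 ± 0.145 to 1.24 ± 0.185 CPM. Mxi1, a Myc antagonist, changed by -0.33, and its call was lost when any single library was left out. Pdk1, a target often listed with these, was lower, as given above. Of 10 readouts of Wnt signalling, 5 fell and 0 rose (12.5% and 13.3% over all genes), and 3 of the 5, Lgr5, Ascl2 and Axin2, are among the stem cell markers already counted.

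By likeness over the 6 libraries, the genes closest to the mean standardized profile of the 10 enzymes included Tagln2 (Pearson r = 0.99), Eif6, Vps37c and Coq7 (0.96), out of 7409 genes averaging 20 CPM or more. None of these 4 was called, with edgeR adjusted p-values of 0.22 to 0.27. In each of them Klf5-KO replicate 2 was the highest library, as it was for 6 of the 10 enzymes. The mean profile itself peaks in that library, so this follows from how the genes were picked.

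Near-identical copies limit some of these counts. The share of a gene's 50-base stretches also found in transcripts of other genes was 53.9% for Pgk1, 25.99% for Eno1, 25.8% for Pkm, 15.8% for Gpi1, 9.26% for Ldha, 6.43% for Aldoa, 5.10% for Pfkp and 1.22% for Hk1, and 25.1% for Gapdh. How reads of such stretches were assigned is not given in the sources used here, so the levels of Pgk1, Eno1 and Pkm in particular are uncertain.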

How the data were processed

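The 6 libraries could be placed in 2 groups of 3 from their labels. Per the file headers, the authors deposited whole-number read counts per gene, made by featureCounts 1.4.3-p1 from the GENCODE vM16 annotation, reverse-stranded; per the submitters' processing notes, STAR 2.5.2a, mm10 and DESeq2 1.18.1 were used. Counts were not normalized. Symbols came from GENCODE vM21, which matched 53274 of 53379 IDs. Where a symbol had more than 1 ID, the ID with the larger count was used.

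Differences between groups were tested by edgeR 4.0.16 under R 4.3.3 (filterByExpr, TMM factors, quasi-likelihood F test, group as the only term), with Benjamini-Hochberg adjustment over all 19339 genes kept and a threshold of 0.05. The SE is the size of the log2 fold change over the square root of F. CPM uses TMM-scaled library sizes. Interval and ratio tests are described where they are used. The biological coefficient of variation was 17.0%. Depth was 61563625 to 77666540 counts, and the ribosomal-like genes Gm26917 and Gm42418 took 13.5 to 18.3% of them. No pair of libraries within a group agreed within sampling noise. The fit was tested on simulated data, where p-values of unchanged genes were close to uniform, but in the first draw, and on average with gene-wise dispersions, false calls exceeded the nominal rate.

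The members and lists were chosen with earlier results of these data known. The text names the 10 enzymes, Klf5, 6 other pathway genes whatever their result, up to 4 called genes per list with the smallest adjusted p, and genes from the 5 most like the enzymes' mean profile. Pklr, Bpgm, Mxi1, Pdk3, Pdk4, Slc5a1, Slc2a2, Slc2a5 and the markers Olfm4, Fcgbp and Col1a2 lie outside this rule and were named after their values were seen. Some genes that this rule takes, and the ratio and sums that need them, are not reported here. Alternatives were other scalings and filters, DESeq2 1.42.0, limma 3.58.1 (voom), robust dispersion, removal of ribosomal-like, mitochondrial and structural RNAs, a replicate block, a stricter threshold and leaving out each library. Sex as a covariate, and leaving out control replicate 3 with Klf5-KO replicate 2, were added after seeing the data.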

Additional observations from a re-analysis of the deposited data

How the results depend on the processing

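Of the 10 enzymes, the number called higher was 3, and 1 at an adjusted p under 0.01. The number called lower was 0, and 1 (Hk1) with upper-quartile scaling, with DESeq2 and with limma-voom. When single libraries were left out, 1 to 3 enzymes were called higher, with the lowest number, 1, without control replicate 2, and 0 were called lower. Over all genes, 1605 to 2740 were then called higher and 1467 to 2664 lower. Near-zero changes turned sign. The log2 fold change of Gpi1 ran from -0.077 to 0.0086 when single libraries were left out, positive without Klf5-KO replicate 1. That of Pfkl was -0.0087 with upper-quartile scaling and ran from -0.014 to 0.041 over the single libraries left out, with negative values when control 2 (-0.0033), control 3 (-0.014) or Klf5-KO 1 (-0.0082) was missing. It was -0.015 when control 3 and Klf5-KO 2 were both missing. Pfkp also lost its call with upper-quartile scaling (adjusted p = 0.057), with the CPM filter (0.054) and with a split by Xist level, standing in for sex, as a covariate (0.062). That split was made at the middle of the Xist range, so it separates the libraries whatever their sex. The cause of these changes in sign and call was not tested.

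No pairing by replicate number was seen: same-numbered libraries had correlations of -0.0081, 0.0059 and -0.039 in their deviations from the group means. Control replicate 2 had Klf5-KO replicate 2 as its best match, and control replicates 1 and 3 matched best to other numbers. Such correlations, with 3 libraries per group, cannot exclude that libraries were prepared together. With the replicate block, 2 enzymes were called higher, Pfkp being lost (adjusted p = 0.077), and 2286 genes were higher and 2088 lower. The isozyme ratios have no fit across genes, so no block was applied to them. Precision is limited for Hk1, which rests on 194 to 348 reads per library.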
